A study of Ovis aries with 6 samples.

Results

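The miR-30 family was followed through small RNA libraries of fetal sheep rumen. Its members were every listed miRNA whose sheep name carries the number 30, whatever its letter or arm. The rule used the name and no measured value, although the family was picked with earlier results of these data known. The rule found 5 of the 1253 miRNAs in the list, or 5 of the 152 that carry a sheep name. These were oar-miR-30a-5p, oar-miR-30a-3p, oar-miR-30b, oar-miR-30c and oar-miR-30d.

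The libraries came from the rumen, the largest forestomach, of male fetuses of Hu sheep, a breed that often carries several fetuses. All were wild type. In the undernourished group (UN, 3 libraries, called TR in the labels), pregnant ewes were cut to 30% of what they had eaten before, over 15 d that began at gestation day 115. In the control group (CON, 3 libraries), ewes were kept at their baseline feed over the same days. By the study's methods the tissue was taken at day 130, while the labels state only day 115. Restriction was applied to the ewe and not to the fetus, and the RNA was taken from whole pieces of tissue, so a level is a mean over all cells in the piece. Nothing in the labels says whether fetuses shared a ewe, so p-values measure the spread between these samples, which may be partly technical.

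MicroRNAs are short RNAs that guide Argonaute proteins to mRNAs and repress them, mainly by pairing through the seed, bases 2 to 8 of the miRNA. The hairpin precursor of a miRNA has a 5p and a 3p arm, and either arm can be loaded into Argonaute. The miR-30 5p members share a seed. In human and mouse cells they are known for repressing SNAI1, a transcription factor that drives the loss of the epithelial state, BECN1, which acts in autophagy, and, in the heart, CTGF, a matrix-associated growth factor.

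The mature sequences below are shown because they decide which members can share targets and which could share reads. They are written 5′ to 3′ with the seed in capitals, as given in the study's sequence list.

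oar-miR-30d: uGUAAACAuccccgacugg
oar-miR-30a-5p: uGUAAACAuccucgacuggaagc
oar-miR-30c: uGUAAACAuccuacacucuca
oar-miR-30b: uGUAAACAuccuacacucagc
oar-miR-30a-3p: cUUUCAGUcggauguuugcag
novel_miR_863: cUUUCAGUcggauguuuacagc

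The 4 members from the 5p arm shared the seed GUAAACA, and no other entry in the list had it. They formed pairs by sequence. With positions counted from 1 at the 5′ end and the first-named miRNA's base given first, miR-30a-5p and miR-30d differed only by U12C over the 19 bases listed for miR-30d. miR-30b and miR-30c differed by A19U, G20C and C21A, all at the 3′ end. Between the pairs, miR-30a-5p differed from miR-30c by C13A, G14C, G18C, G19U and A20C.

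miR-30a-3p, from the opposite arm of the miR-30a hairpin, had the seed UUUCAGU. The only other entry with that seed was novel_miR_863, a miRNA predicted by the authors without a sheep name, which differed from miR-30a-3p by G18A over 21 bases. It was not a member by the rule and is given for comparison. No entry had the same full sequence as a member. How reads with a mismatch or a shortened end were assigned is not given in the sources used here, so the split of reads within the miR-30a-5p and miR-30d pair, and within the miR-30b and miR-30c pair, is uncertain. Reads of a similar miRNA that the list lacks, if present, could also have been counted under a member. That was not tested.

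Levels are in RPM, which gives the reads of 1 miRNA for every 1000000 that were assigned to any entry of the list. The libraries held 18731340 to 27059374 assigned reads in UN and 18584326 to 35555822 in CON. oar-miR-143, a miRNA typical of smooth muscle, took 37.7, 43.8 and 48.5% of the reads in UN1, UN2 and UN3, against 42.3, 29.5 and 50.0% in CON1, CON2 and CON3. RPM is a share of the total, so with all else equal another miRNA has fewer RPM where miR-143 takes more. CON2 stood apart by its low miR-143 share. Of the cell type markers looked up by name, only miR-143 and the striated muscle miRNA oar-miR-133 were found, the second at 160 to 280 RPM in UN and 232 to 268 RPM in CON. Markers listed without a sheep name were not checked here.

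The most abundant member was miR-30d. It measured 6569, 6225 and 6973 RPM in UN1, UN2 and UN3, against 6992, 8776 and 6372 RPM in CON1, CON2 and CON3. CON2 was the highest library and UN2 the lowest, and the groups overlapped. The mean was 6589 ± 374 RPM in UN and 7380 ± 1248 RPM in CON (SD, n = 3 each).

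miR-30a-5p followed closely. Its levels were 6567, 5678 and 5398 RPM in the UN libraries, in the same order, against 7382, 7508 and 5294 RPM in the CON libraries. CON1 and CON2 were high and CON3 was the lowest of all 6, so that the groups overlapped here too. The mean was 5881 ± 610 RPM in UN and 6728 ± 1244 RPM in CON (SD, n = 3 each).

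miR-30c was found at 2905, 2742 and 3174 RPM in UN, against 3037, 3782 and 2805 RPM in CON. CON2 was again the highest library, and the other 5 lay between 2742 and 3174 RPM with the groups mixed. The mean was 2940 ± 219 RPM in UN and 3208 ± 511 RPM in CON (SD, n = 3 each).

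The 3p arm miR-30a-3p measured 589, 519 and 514 RPM in UN, against 535, 649 and 507 RPM in CON. It had the narrowest range of the 5 members, with the highest library 1.28 times the lowest. The mean was 541 ± 42.0 RPM in UN and 564 ± 74.9 RPM in CON (SD, n = 3 each).

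miR-30b was the least abundant and the most variable member. It measured 443, 357 and 251 RPM in UN, against 424, 467 and 304 RPM in CON. UN3 was the lowest library and CON3 the next lowest, and the highest library was 1.86 times the lowest. The mean was 351 ± 96.2 RPM in UN and 398 ± 84.3 RPM in CON (SD, n = 3 each). Counting error was small beside these differences: the lowest value, 251 RPM in UN3, rested on 6800 reads and had an exact Poisson 95% interval of 245 to 257 RPM, which covers counting error only.

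**Figure D1:**
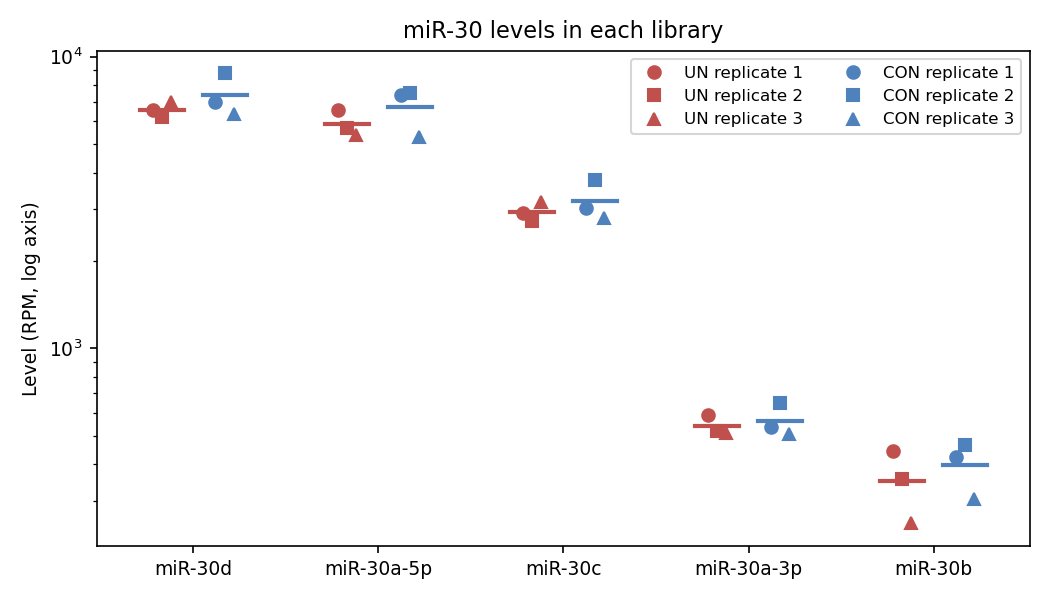
Level of each miR-30 member (RPM, log axis) in the 3 UN and 3 CON libraries, with 1 point per library. The members span from 251 RPM (miR-30b in UN3) to 8776 RPM (miR-30d in CON2), and for every member the UN and CON points overlap.

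In single libraries the rank among all miRNAs was 18 to 21 for miR-30d and 19 to 23 for miR-30a-5p. It was 33 to 36 for miR-30c, 74 to 83 for miR-30a-3p and 86 to 102 for miR-30b. By mean level over the 6 libraries, miR-30d ranked 19 among all 1253 miRNAs, miR-30a-5p 22, miR-30c 33, miR-30a-3p 81 and miR-30b 93. When miRNAs were grouped by seed, GUAAACA was 10 to 12 of 777 seeds in each library, with a mean of 1.67% of all assigned reads. The seed UUUCAGU of the 3p arm was 47 to 53. Of the family's own reads, miR-30d made up 40.4%, miR-30a-5p 36.4%, miR-30c 17.8%, miR-30a-3p 3.21% and miR-30b 2.16% (means of 6 libraries).

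Neighbours in the order of levels were compared within libraries by an exact two-sided sign-flip permutation test (n = 6, smallest possible p 0.03125), with p adjusted over the 4 pairs by Benjamini-Hochberg. miR-30d exceeded miR-30a-5p by 1.11-fold (ratio of means) and in 5 of 6 libraries, which did not pass the test (exact p = 0.09375, adjusted p = 0.09375). CON1 was the exception, and in UN1 the pair was nearly equal, with 123043 reads of miR-30d and 123005 of miR-30a-5p. miR-30a-5p exceeded miR-30c 2.05-fold, miR-30c exceeded miR-30a-3p 5.57-fold and miR-30a-3p exceeded miR-30b 1.47-fold. Each of these 3 steps had the same direction in 6 of 6 libraries (exact p = 0.03125, adjusted p = 0.0417). The order was set by mean level over these same 6 libraries. The pairs and their direction thus came from the values tested, and the p-values are a description only. Read counts of different sequences also reflect how efficiently each was ligated, so the order is one of reads.

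The family's total did not separate the groups. The 5 members together made up 1.71, 1.55 and 1.63% of assigned reads in UN1, UN2 and UN3, against 1.84, 2.12 and 1.53% in CON1, CON2 and CON3. CON2 was the highest library and CON3 the lowest, so that the whole UN range lay inside the CON range. The mean was 1.63 ± 0.0776% in UN and 1.83 ± 0.295% in CON (SD, n = 3 each), a log2 ratio of -0.15 against a pooled SD of 0.17. In tissue of mixed cells, fewer cells that make a miRNA and less of it per cell cannot be told apart.

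For the comparison of UN with CON, limma was run on log2(RPM + 1) over the 567 miRNAs with enough reads, which included all 5 members. No member passed an adjusted p of 0.05, and 0% of the 567 did. At an unadjusted p of 0.05, 0 of 5 members passed, where 5.11% of the 567 did. edgeR and DESeq2 on the recovered reads also called 0 of 5 members at an adjusted p of 0.05, while over the 567 edgeR called 1 higher and DESeq2 2 higher and 2 lower. All 5 log2 fold changes were below 0, with a median of -0.15. Over the 567, 73.5% were below 0 and the median was -0.12, so the shift of the members was close to that of the whole table. Some predicted entries had the same values as each other. The 567 were therefore not all separate miRNAs, and shares over them, here and below, count some values more than once.

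The estimates were small and their intervals wide. miR-30d had a log2 fold change of -0.15 (SE 0.18, 95% interval -0.55 to 0.25, limma adjusted p = 0.887). For miR-30a-5p it was -0.18 (SE 0.20, interval -0.60 to 0.24, limma adjusted p = 0.854), and for miR-30c -0.12 (SE 0.19, interval -0.53 to 0.30, limma adjusted p = 0.946). The arm miR-30a-3p was nearest to 0, at -0.05 (SE 0.21, interval -0.50 to 0.39, limma adjusted p = 0.999). miR-30b had the widest interval, -0.76 to 0.36 around -0.20 (SE 0.26, limma adjusted p = 0.911). On the linear scale of RPM + 1, the interval of miR-30d ran from 0.683 to 1.19-fold and that of miR-30b from 0.591 to 1.28-fold, so values within these limits were compatible with the data. novel_miR_863, with 122.5, 153.4 and 163.4 RPM in UN against 150.9, 185.5 and 144.8 RPM in CON, had a log2 fold change of -0.13 (SE 0.23, limma adjusted p = 0.953). None of the 5 members had every UN library below every CON library, where 12.3% of the 567 did, or every UN library above, where 1.06% did.

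The sign of the members' changes depended on the scaling. With TMM factors, which centre the bulk of miRNAs, the median of all 567 moved to 0.01, and miR-30d had a log2 fold change of 0.02, miR-30a-5p -0.01, miR-30c 0.05, miR-30a-3p 0.11 and miR-30b -0.03. With RPM over the reads other than miR-143, miR-30d had -0.09, miR-30a-5p -0.12, miR-30c -0.06, miR-30a-3p 0.0029 and miR-30b -0.14. None passed an adjusted p of 0.05 in limma under either scaling. Single libraries also turned the sign: without CON2 the log2 fold change of miR-30c was 0.0082 and that of miR-30a-3p 0.05, and without UN3 that of miR-30b was 0.02.

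**Figure D2:**
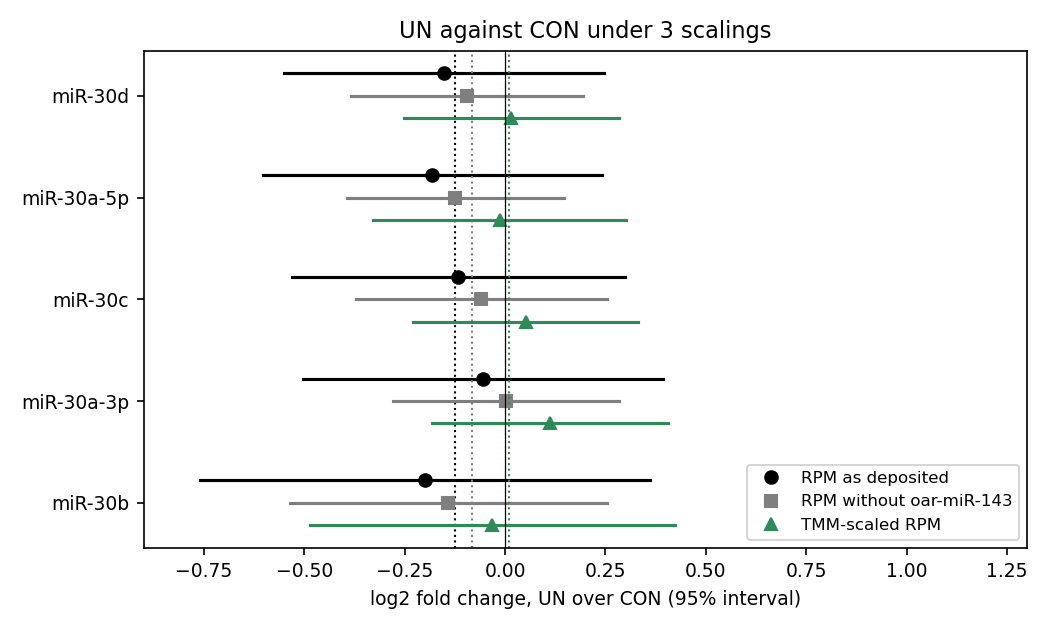
Log2 fold change of UN over CON for each member with its 95% interval from limma, for RPM as deposited (circles), RPM without miR-143 (squares) and TMM-scaled RPM (triangles). Dotted lines mark the median over all tested miRNAs under each scaling. All intervals cross 0, and the estimates follow the median as it moves to 0.01 with TMM.

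The high values in CON2 went together with its low miR-143 share. All 5 members were highest in CON2 in RPM. Over the reads other than miR-143, none was: miR-30a-3p was highest in CON3, miR-30a-5p and miR-30b in CON1, and miR-30c and miR-30d in UN3. Leaving out miR-143 must lower CON2 most against the other libraries, since its miR-143 share was the lowest. Part of this change in order was therefore fixed by the arithmetic. The coefficient of variation over the 6 libraries was 10.1% in RPM and 4.31% without miR-143 for miR-30a-3p, 15.7 and 8.89% for miR-30a-5p, and 22.7 and 13.7% for miR-30b. It was 12.4 and 10.1% for miR-30c and 13.3 and 9.15% for miR-30d.

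On this scale 1 member separated the groups. miR-30a-5p had 10537, 10100 and 10482 RPM without miR-143 in UN1, UN2 and UN3, against 12788, 10648 and 10593 in CON1, CON2 and CON3. All UN libraries were lower, but by little except against CON1, and 10.2% of the 566 miRNAs tested without miR-143 had every UN library below every CON library on this scale. The limma adjusted p was 0.779.

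**Figure D3:**
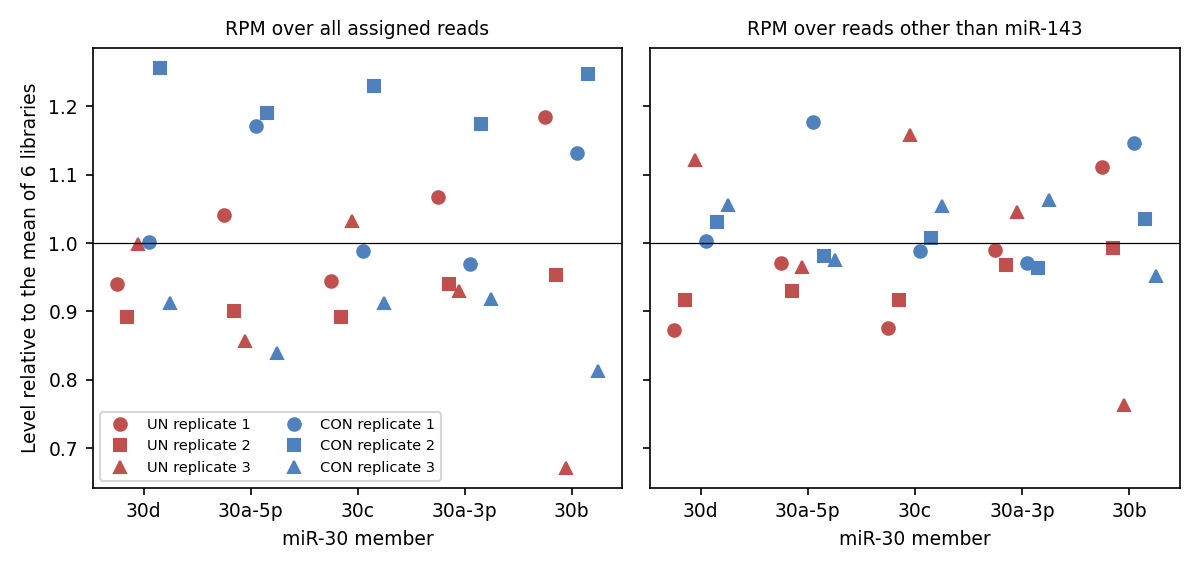
Level of each member in each library relative to its mean over the 6 libraries, for RPM over all assigned reads (left) and over reads other than miR-143 (right). CON2 is the highest library for all 5 members on the left and for none on the right, while UN3 stays the lowest for miR-30b.

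The members did not all vary alike. Within groups, the pooled SD of log2(RPM + 1) lay at the 15.3 percentile of the 567 for miR-30a-3p, 21.3 for miR-30c, 22.2 for miR-30d and 39.5 for miR-30a-5p. For miR-30b it was 0.37, at the 81.3 percentile, against a median of 0.26 over all miRNAs tested.

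Ratios of reads within a library do not depend on the total. For 5 ratios, UN and CON were compared by an exact two-sided permutation test, whose smallest possible p is 0.1 with 3 libraries against 3, so that none could pass 0.05. The ratio of the arms of the miR-30a hairpin, 5p over 3p, was 11.2, 10.9 and 10.5 in UN1, UN2 and UN3, against 13.8, 11.6 and 10.4 in CON1, CON2 and CON3. CON1 stood highest and CON3 lowest, and the groups overlapped. The mean was 10.9 ± 0.326 in UN and 11.9 ± 1.71 in CON (SD, n = 3 each, exact p = 0.5).

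miR-30b as a share of miR-30d was 6.75, 5.73 and 3.60% in UN, against 6.06, 5.32 and 4.78% in CON. UN held both the highest and the lowest library. The mean was 5.36 ± 1.61% in UN and 5.38 ± 0.644% in CON (SD, n = 3 each, exact p = 0.9).

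miR-30b as a share of miR-30c was 15.3, 13.0 and 7.92% in UN, against 14.0, 12.3 and 10.8% in CON (exact p = 0.9, n = 3 each). The ratio of miR-30a-5p to miR-30c was 2.26, 2.07 and 1.70 in UN, against 2.43, 1.98 and 1.89 in CON (exact p = 0.8, n = 3 each). That of miR-30a-5p to miR-30d was 1.00, 0.912 and 0.774 in UN, against 1.06, 0.855 and 0.831 in CON (exact p = 0.9, n = 3 each). The groups overlapped in all 5 ratios, and the Benjamini-Hochberg adjusted p of the exact tests was 0.9 for each. The 4 ratios of miR-30a-5p or miR-30b to miR-30c or miR-30d put UN1 and CON1 highest, then UN2, CON2, CON3 and UN3. These ratios share members, so this is not 4 separate observations. UN3 and CON3 were also the libraries with the most assigned reads and the highest miR-143 shares in their groups. The part of depth or of miR-143 in the ratios was not tested.

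The ratio of miR-30d to miR-30c, singled out after its values were seen, was nearly constant. It was 2.26, 2.27 and 2.20 in UN1, UN2 and UN3, against 2.30, 2.32 and 2.27 in CON1, CON2 and CON3. The highest library was only 1.06 times the lowest, and the SD of the log2 ratio over the 6 libraries was 0.0272. Among the 1711 pairs of the 59 miRNAs that averaged at least 1000 RPM, the median SD was 0.26, and only 3 pairs had a smaller SD than miR-30d with miR-30c. Each of those 3 pairs was made of entries with identical sequences. miR-30d and miR-30c differ in sequence by U12C, A13C, C14G, C18G and U19G, named from miR-30c to miR-30d over the 19 bases of miR-30d.

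The mean ratio was 2.24 ± 0.0402 in UN and 2.30 ± 0.0244 in CON (SD, n = 3 each, exact permutation p = 0.1, the smallest this design allows). Every UN library was below every CON library, the nearest being UN2 at 2.271 and CON3 at 2.272, which were almost tied. The UN2 ratio rested on 127492 reads of miR-30d and 56148 of miR-30c. Its counting error was not computed, so the lack of overlap may lie within it. Of the 10 pairs that can be formed from the 5 members, this was the only 1 that did not overlap, where 12.2% of the 1711 pairs did not. It was described after the fact and carries no weight as a test.

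**Figure D4:**
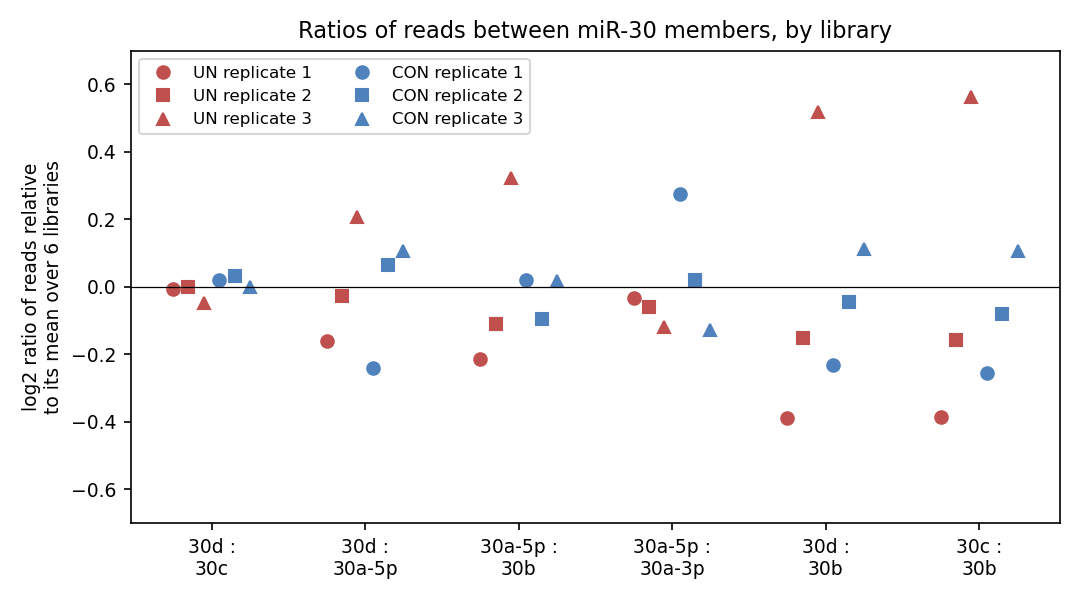
Log2 ratio of reads between miR-30 members in each UN and CON library, relative to the mean of that ratio over the 6 libraries, with 1 point per library. The miR-30d to miR-30c ratio stays within a 1.06-fold range, while ratios with miR-30b spread widest and have UN3 at the extreme.

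Among the genes that RefSeq names, the steadiest ratio was not that of neighbours. RefSeq names 4 sheep miR-30 genes in the assembly ARS-UI_Ramb_v3.0, which was used for gene names and neighbours only: MIR30A, MIR30B, MIR30C and MIR30D. MIR30B and MIR30D lie on the same chromosome with 0 genes listed between them, yet the ratio of miR-30d to miR-30b ran from 14.8 to 27.7 over the libraries. MIR30A lies on the same chromosome as MIR30D, with 162 genes listed between them. The gene named MIR30C lies on another chromosome than MIR30D, while miR-30d and miR-30c had the steadiest ratio. Whether miR-30c also comes from a gene without such a name was not checked.

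The related novel_miR_863 was less steady beside miR-30a-3p. The ratio of miR-30a-3p to novel_miR_863 was 4.81, 3.39 and 3.14 in UN, against 3.54, 3.50 and 3.50 in CON. The CON libraries were nearly equal, and UN1 stood far above the rest while UN2 and UN3 were below CON. The predicted entry had only 2294 to 5147 reads in a library. Counting error of this ratio was not computed, so small differences in it are uncertain.

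Of 7 other miRNAs known for holding the epithelial state, 3 were found by name, namely miR-200a, miR-200b and miR-200c, which repress the transcription factors ZEB1 and ZEB2 in human and mouse cells. Entries without a sheep name were not checked for these miRNAs, so the 3 may be only a part of them. None passed limma's adjusted threshold in either direction, and 1 of 3, miR-200b, had an unadjusted p under 0.05, where 5.11% of the 567 did. All 3 log2 fold changes were below 0 and their median was -0.26, where 73.5% of the 567 were below 0 with a median of -0.12. oar-miR-200a, with the most reads of the 3, had 7041, 6255 and 5177 RPM in UN, against 6875, 8985 and 6382 RPM in CON (log2 fold change -0.26, limma adjusted p = 0.854). Like the miR-30 members it was highest in CON2. oar-miR-200b, named after its values were seen, had 5523, 4358 and 4910 RPM in UN, against 6937, 7397 and 6477 RPM in CON, and was the 1 of the 3 whose groups did not overlap, where 12.3% of the 567 had every UN library below every CON library (log2 fold change -0.50, limma adjusted p = 0.839).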

How the data were processed

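By the study's methods the authors ligated size-selected small RNA (the labels name NEBNext Ultra, an RNA-seq kit), sequenced it single-end, aligned cleaned reads to Sheep Reference Genome 3.0 with Bowtie2 and listed miRNAs, both known and predicted. Neither the miRNA database nor the prediction program is given in the sources used here. The deposited column is named TPM, but it holds RPM as made by the authors: values sum to 1000000 per library with no division by length. All values (100%) were whole multiples of 1 read within 0.001 reads, so reads were recovered from them. The title of the series names gut segments other than the rumen, and the sample labels were followed.

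Log2(RPM + 1) was compared with limma 3.58.1 (trend) in R 4.3.3, without covariates, over 567 miRNAs kept by edgeR's filterByExpr (minimum count 10, minimum total 15), with Benjamini-Hochberg adjustment. Alternatives were other pseudocounts, no filter, TMM, quantile scaling, RPM without miR-143, edgeR 4.0.16 and DESeq2 1.42.0 on recovered reads, a replicate block and leaving out each library. The fit was tested on simulated data, where the planted changes were larger than the members' estimates. That test does not cover changes as small as theirs. No 2 libraries of the same group were duplicates. Named miRNAs were the 5 members, entries sharing a seed, the 3 miRNAs most like the family across libraries, miR-143, epithelial miRNAs and cell type markers. The family and the lists were chosen with earlier results of these data known.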

Additional observations from a re-analysis of the deposited data

How the results depend on the processing

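The 5 members were called in none of the 15 alternatives (adjusted p 0.548 to 0.999 by limma, edgeR or DESeq2). Their log2 fold changes, all below 0 as reported, ranged from -0.39 to 0.15 and turned above 0 in 17 cases. For miR-30a-3p these were 0.11 with TMM, 0.032 with quantile scaling, 0.0029 without miR-143, 0.11 with edgeR and 0.11 with DESeq2. For miR-30c they were 0.051 with TMM, 0.15 with quantile scaling, 0.054 with edgeR and 0.060 with DESeq2. For miR-30d they were 0.016 with TMM, 0.010 with quantile scaling, 0.017 with edgeR and 0.023 with DESeq2, and for miR-30a-5p 0.022 with quantile scaling. Leaving out each library gave -0.13 to 0.051 for miR-30a-3p and -0.21 to 0.0082 for miR-30c, with the highest values without CON2, and -0.39 to 0.021 for miR-30b, highest without UN3. TMM and quantile scaling also moved the median of all miRNAs to about 0, and the cause beyond that was not tested.

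Leaving out each library, the log2 difference of the ratios, UN minus CON, ranged from -0.24 to 0.22 for miR-30b to miR-30d, -0.28 to 0.19 for miR-30b to miR-30c and -0.15 to 0.051 for miR-30a-5p to miR-30c, each highest without UN3, and from -0.11 to 0.079 for miR-30a-5p to miR-30d, highest without CON1. For miR-30a-5p to miR-30a-3p, -0.13 with all libraries, it ranged from -0.22 without CON3 to -0.02 without CON1. The number of the 5 ratios whose groups did not overlap ranged from 0 to 1, the 1 being this arm ratio without CON3. The family's summed log2 ratio ranged from -0.28 without CON3 to -0.04 without CON2 and was 0.01 with TMM. Deviations from the group mean, over the tested miRNAs, correlated by -0.07, 0.07 and 0.19 between UN and CON libraries of the same replicate number. Between libraries of unlike number they correlated by -0.20 to 0.17, so the numbers were not taken as pairs. A replicate block cannot move a log2 fold change in this balanced design (miR-30d stays at -0.15), only its error: with the replicate block the limma adjusted p of miR-30d was 0.893 and 0 members were called. For the levels of members, counting error was small beside the spread between the 3 libraries of a group. It was not computed for ratios.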

Other observations

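The miRNAs whose log2(RPM + 1) followed the summed level of the 4 miR-30 5p members most closely over the 6 libraries were newly predicted ones. novel_miR_431 had a Pearson r of 0.97 and a Spearman rho of 0.89, and r was 0.94 over the 4 libraries left without CON2 and CON1. It had 44.8, 34.9 and 38.4 RPM in UN1, UN2 and UN3, against 44.5, 63.8 and 36.1 RPM in CON1, CON2 and CON3. novel_miR_362 and novel_miR_454, which had the same values as each other, had r 0.97 and rho 1, with r 0.97 without CON2 and CON1, but stayed below 1 RPM in every library. All 3 were highest in CON2. The points share a library total, the 3 were picked as the highest of the 567 after the members were left out, and the likeness is a description only.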
